A study of Homo sapiens with 12 samples.

Results

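The locus described here is the stretch of chromosome 9 that holds CD274, which encodes PD-L1, and PDCD1LG2, which encodes PD-L2. Given these 2 genes, the bins were taken by position, as the accessible 100-bp bins inside both gene bodies and within 50 kb on each side, on GRCh38 with the gene models of GENCODE. That window, chr9:5400503-5621282, spans 220780 bp. It held 115 of 709366 accessible bins in DU-145 cells and 106 of 472994 in BT-549 cells. Neighbouring bins were joined into regions, which gave 13 of 79177 regions in DU-145 and 12 of 46298 in BT-549. Bins held by both tables made 4 of 32671 shared regions.

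ATAC-seq, in which a transposase cuts and tags open chromatin, was performed in 2 human carcinoma lines that both carried a doxycycline (DOX)-inducible shRNA against MUC1. DU-145 is a castration-resistant prostate cancer (CRPC) line and BT-549 is a triple-negative breast cancer (TNBC) line. Cells of each line received vehicle (0.1% DMSO) or DOX for 7 days, with 3 libraries in each of the 4 groups and 12 in all. DOX switches on the hairpin, so that loss of the MUC1-C oncoprotein and the drug itself share 1 contrast and cannot be told apart. DOX-treated cells that carry a non-silencing hairpin were not used here. The levels below are the mean coverage of a region's bins in CPM, that is, scaled so that all bins of a library sum to the same total.

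PD-L1 and PD-L2 are surface ligands of the B7 family that bind the receptor PD-1 on T cells and restrain their activity. CD274 is transcribed in many carcinoma cells and is induced by interferon-gamma through JAK, STAT and IRF factors. PDCD1LG2 is best known from antigen-presenting cells, and some carcinoma cells also express it. The genes lie in tandem on the plus strand. CD274 covers chr9:5450503-5470566, PDCD1LG2 covers chr9:5510531-5571282, and 39964 bp separate them. The window also holds the start of PLGRKT, a plasminogen receptor gene on the minus strand, the pseudogene RNF152P1 and 2 long non-coding RNA genes. Of these, ENSG00000286162 (chr9:5457477-5629748) runs antisense across the 3′ part of CD274, the stretch between the genes and the body of PDCD1LG2. ATAC-seq carries no strand, so that accessibility where this antisense gene overlaps CD274 or PDCD1LG2 cannot be assigned to either strand.

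The following 4 sequences are shown because the results turn on them: the bases just before the CD274 start, and the centres of the 3 regions near the genes at which coverage differed most between DOX and vehicle in DU-145. All are the plus strand of GRCh38, 5′ to 3′. Capitals mark matches to the letters searched on both strands, which were TGAGTCA (AP-1), TTCNNNGAA (STAT), GAAANNGAA (IRF), GGGANTTTC (NF-kB) and CACGTG (E-box). The CD274 sequence is the RefSeq promoter entry up to the base before the gene, chr9:5450292-5450502.
CD274 upstream: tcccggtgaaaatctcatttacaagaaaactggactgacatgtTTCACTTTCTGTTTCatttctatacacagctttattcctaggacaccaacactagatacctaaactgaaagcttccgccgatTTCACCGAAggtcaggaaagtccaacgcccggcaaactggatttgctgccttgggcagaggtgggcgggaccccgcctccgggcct
Region 3.75 kb before CD274, chr9:5446601-5446900, intergenic: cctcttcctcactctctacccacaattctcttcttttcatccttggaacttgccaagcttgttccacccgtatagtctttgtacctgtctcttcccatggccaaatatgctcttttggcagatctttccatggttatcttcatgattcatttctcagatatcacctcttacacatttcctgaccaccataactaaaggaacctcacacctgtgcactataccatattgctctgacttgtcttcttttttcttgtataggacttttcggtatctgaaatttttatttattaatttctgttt
Region between the genes, chr9:5494101-5494400, intron of the antisense gene ENSG00000286162: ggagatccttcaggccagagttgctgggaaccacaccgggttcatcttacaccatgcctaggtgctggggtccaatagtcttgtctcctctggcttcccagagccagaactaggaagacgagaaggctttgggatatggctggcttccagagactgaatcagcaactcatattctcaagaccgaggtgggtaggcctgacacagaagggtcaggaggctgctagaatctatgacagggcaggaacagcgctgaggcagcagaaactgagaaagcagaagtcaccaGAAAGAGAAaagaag
PDCD1LG2 upstream, chr9:5509601-5509900, intron of ENSG00000286162: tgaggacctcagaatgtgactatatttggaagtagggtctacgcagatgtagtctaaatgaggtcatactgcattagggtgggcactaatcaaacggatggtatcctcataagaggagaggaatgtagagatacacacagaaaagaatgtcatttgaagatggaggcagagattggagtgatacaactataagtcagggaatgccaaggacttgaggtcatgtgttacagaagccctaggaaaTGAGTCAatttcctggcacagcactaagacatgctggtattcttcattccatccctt
The CD274 sequence holds the STAT-type match TTCACCGAA, which ends 78 bases before the gene start. It also holds the overlapping matches TTCACTTTC and TTCTGTTTC to the IRF letters on the minus strand, ending 160 and 154 bases before it. The STAT letters occurred in 7.66% and the IRF letters in 8.10% of 34943 RefSeq promoters. The sequence at -3.75 kb holds no match to any of the 5 motifs. That between the genes holds 1 IRF match, and that upstream of PDCD1LG2 holds 1 AP-1 match. AP-1 letters were found in 5 of the 13 DU-145 regions, against 30.05% of all DU-145 regions, and in 1 of the 12 BT-549 regions, against 17.5%. A match is a run of letters in a 300-base window and does not show that a factor is bound there.

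The libraries differed in depth. Summed coverage ran from 12370094 to 25232000 over the DU-145 libraries and from 9142900 to 13606129 over the BT-549 vehicle libraries, but only from 2502510 to 3267024 in BT-549 with DOX. Coverage is summed over bins and is larger than the number of fragments. In DU-145 the promoter regions of EPCAM, CDH1, KRT8 and KRT18 were present, all absent in BT-549, whereas CDH2 had one in BT-549 only and VIM and ZEB1 had one in both. DU-145 had none at KLK3, and neither line had one at ESR1, PTPRC, CD3E or PECAM1. Scaling by the library sum left the median region in DU-145 at a log2 fold change of 0.24 (DOX over vehicle) and in BT-549 at -0.10, so that changes at the locus are to be read against those values.

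In DU-145 cells, coverage at the PD-L2 promoter was higher with DOX while that at the core of the PD-L1 promoter was not. It was also higher at a region 3.75 kb upstream of PD-L1. Over the locus, 8 of 13 regions were higher with DOX and 0 were lower by edgeR's quasi-likelihood test at an adjusted p under 0.05. Over all DU-145 regions, 37.1% were higher and 17.4% lower. At an unadjusted p under 0.05 again 0 regions of the locus were lower, whereas DESeq2 called 6 higher and 1, the PLGRKT promoter, lower. With each library's trend of coverage with GC content removed, its level included, 5 were higher and 5 lower. Over all regions the split went from 29363 higher and 13805 lower to 18727 and 22880. With only the shape of that trend removed, it was 25947 and 14782. A fold of at least 2 was reached by 6 of the 13 regions upwards and 0 downwards, against 23.6% and 5.49% of all regions. The median log2 fold change of the 13 regions was 0.91. The table holds a region only where peaks were called in at least 3 libraries. Of the 8 higher regions, 5 had a peak in at most 1 vehicle library and thus entered through the DOX libraries. These are the regions beginning at chr9:5435901, 5441001, 5446401, 5529701 and 5620301. The regions between the genes and before PDCD1LG2 had peaks in 2 vehicle libraries, so that they too needed a DOX library to enter. Of the 8, only the CD274 intron at chr9:5455001 had peaks in all 3 vehicle libraries. Its first bin still entered through DOX peaks, since every vehicle peak there began after that bin. At the other higher regions the whole region needed a DOX library. The differences were thus in part fixed by that selection, which the adjusted p does not take into account. The counts and the median above support nothing by themselves. The same selection applies to the regions of the whole table.

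The region at -3.75 kb from the CD274 start, chr9:5446401-5447200, is intergenic. Its level was 0.219, 0.134 and 0.136 CPM per bin in the 3 vehicle libraries and 1.73, 1.39 and 1.22 with DOX. Every DOX library lay above every vehicle library, by more than the spread within either group. The difference was 9.07-fold (log2 fold change 3.18, SE 0.23, edgeR adjusted p = 9.99e-14). Among all DU-145 regions its level lay at percentile 9.09 with vehicle and 79.8 with DOX. MACS2 had called a peak here in 1 vehicle library, at a fold enrichment of 4.41 over local background, and in all 3 DOX libraries, at 23.6, 25.9 and 18.4. The region is thus in the table through the group in which it is high, and the size and p of its difference depend on that. No BT-549 library had a peak at this region.

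The CD274 promoter region, chr9:5449201-5451100, covers the gene start and lay at percentile 78.5 of the DU-145 regions in vehicle. The vehicle libraries had 1.07, 1.20 and 1.47 CPM per bin and the DOX libraries 1.55, 1.49 and 1.34. The groups overlapped, and the difference did not pass the test (log2 fold change 0.23, 95% interval -0.00 to 0.47, edgeR adjusted p = 0.0884). It passed when the vehicle library labelled replicate 3 was left out (0.36, adjusted p = 0.0151). With the GC trend removed, its level included, the region was lower instead (-0.30, adjusted p = 0.0271). So the direction at the PD-L1 promoter in DU-145 depends on the scaling, and also on the bins taken. Its highest bin was at -0.22 on the log2 scale. Over the bins shared with BT-549, scaled to those bins, the mean was 2.44 CPM per bin with vehicle and 2.51 with DOX.

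Within this promoter region the bins did not move together. At an adjusted p under 0.05, 8 of its 19 bins were higher, against 22.8% of all DU-145 bins, and 1 was lower, against 11.8%. The 8 higher bins formed the upstream shoulder, chr9:5449201-5450000, with log2 fold changes up to 2.67. The vehicle peaks here began at chr9:5449538, 5449617 and 5449626, and the DOX peaks at chr9:5449109, 5449124 and 5449263. The outermost shoulder bins thus entered the table through the DOX libraries. Their rise and the count of higher bins depend in part on that. The bin that fell, chr9:5450401-5450500, holds the STAT-type match shown above. Its vehicle libraries had 4.36, 4.58 and 4.77 CPM and its DOX libraries 3.38, 3.24 and 3.79, which made -0.40 on the log2 scale (SE 0.14, adjusted p = 0.022). The highest bin, over the 5′ UTR of CD274, had 4.61, 3.89 and 4.87 CPM with vehicle and 3.98, 3.58 and 3.70 with DOX, so that these groups overlapped. Vehicle replicate 1 was the lowest of the 6 libraries in the bins between chr9:5449801 and chr9:5450400.

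**Figure D1:**
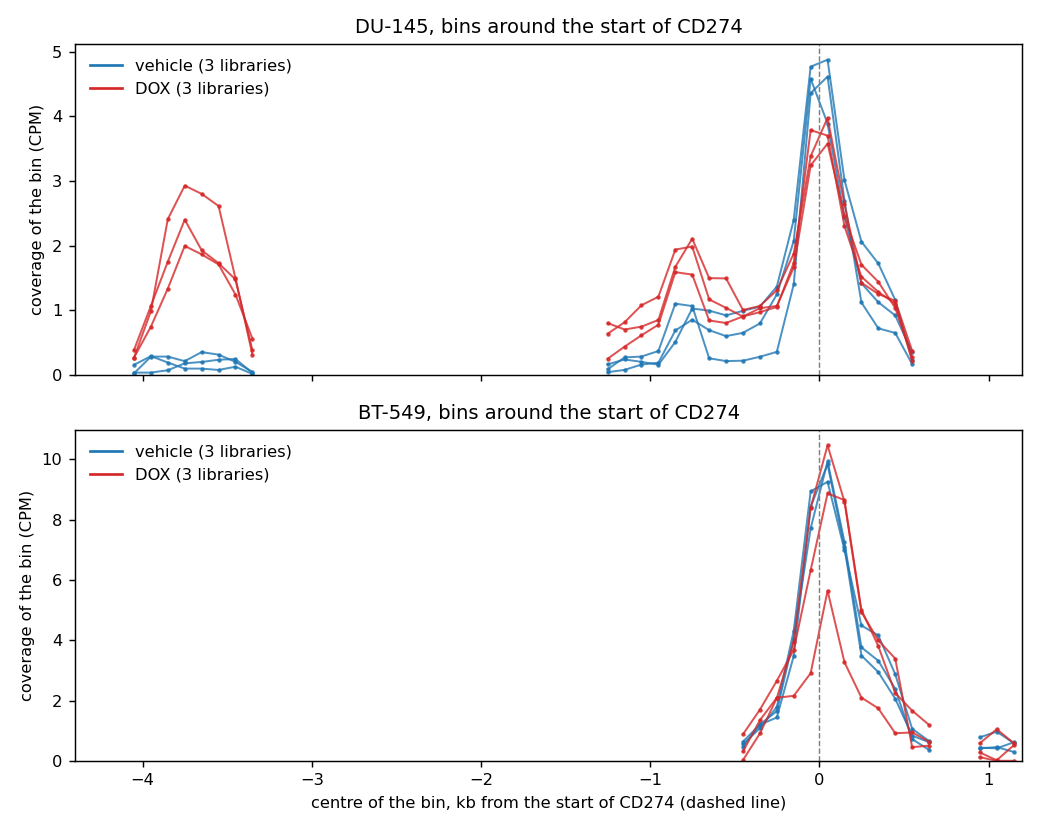
Coverage of each 100-bp bin (CPM) against its distance from the CD274 start (dashed line, kb) in DU-145 (top) and BT-549 (bottom). Each line is 1 library, 3 with vehicle and 3 with DOX. In DU-145 the DOX libraries rise above vehicle at -3.75 kb and along the upstream shoulder, whereas at the start itself the libraries of both groups overlap.

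Inside CD274, the intronic region chr9:5455001-5455700 had 0.639, 0.545 and 0.681 CPM per bin with vehicle and 0.917, 0.881 and 0.866 with DOX. The groups did not overlap (log2 fold change 0.53, SE 0.19, edgeR adjusted p = 0.0209). Vehicle peaks began at chr9:5455243, 5455242 and 5455105 and DOX peaks at chr9:5454975, 5454910 and 5455052. The first bin of the region thus entered through the DOX libraries, and the difference depends in part on that. The call held in only 8 of 17 alternatives. It was lost with TMM (0.34), RLE (0.28), DESeq2 (0.28), loess (0.16), the highest bin (0.31) and the GC shape (0.023), and without vehicle replicate 2 (0.43), at adjusted p of 0.111 to 0.931. The value became -0.21 after removal of the GC trend. The other intronic region of CD274, chr9:5453101-5453900, showed -0.04 on the log2 scale (SE 0.28) with overlapping groups.

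Upstream of CD274, the PLGRKT promoter had the highest level of the locus, with 2.68, 2.93 and 2.47 CPM per bin in vehicle and 2.39, 2.74 and 2.40 with DOX. The groups overlapped (log2 fold change -0.10, SE 0.10, edgeR adjusted p = 0.393). With TMM or RLE factors, DESeq2, the highest bin or the GC correction this promoter was called lower, at up to -0.35. An intronic region of PLGRKT, chr9:5435901-5436500, rose from 0.200, 0.196 and 0.185 CPM per bin to 0.677, 0.469 and 0.371, without overlap (1.34, SE 0.30, adjusted p = 0.00024). A region at -9.25 kb, chr9:5441001-5441400, had 0.201, 0.238 and 0.0732 CPM per bin with vehicle and 0.369, 0.283 and 0.397 with DOX. Its adjusted p of 0.0472 lay at the threshold, and the call held in only 4 of 17 alternatives. Leaving out vehicle replicate 1 or 3 or DOX replicate 1 or 3 ended it (adjusted p = 0.0618 to 0.179), as did every other scaling tried.

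At PDCD1LG2 the region just before the gene start, chr9:5509501-5510500, had 0.302, 0.283 and 0.219 CPM per bin in DU-145 vehicle libraries. With DOX it had 1.18, 1.07 and 1.58. All DOX libraries lay above all vehicle libraries, a 4.71-fold difference (log2 fold change 2.23, SE 0.20, edgeR adjusted p = 1.21e-11). All 10 of its bins were higher at an adjusted p under 0.05, against 22.8% of all DU-145 bins. A fragment spans several bins, so that neighbouring bins are not separate evidence. Its level lay at percentile 21.05 of all regions with vehicle and 76.1 with DOX. Peaks had been called in 2 of 3 vehicle libraries, at fold enrichments of 9.92 and 8.95, and in every DOX library, at 20.5, 31.3 and 30.1. The region thus needed a DOX library to enter the table, and the size and p of its difference depend in part on that.

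The region between the genes, chr9:5492801-5494600, lies 16.3 kb before the PDCD1LG2 start. It had 0.238, 0.218 and 0.153 CPM per bin with vehicle and 1.15, 0.896 and 0.961 with DOX. These groups were also separate (log2 fold change 2.29, SE 0.17, edgeR adjusted p = 3.13e-13). All 18 bins were higher at an adjusted p under 0.05, against 22.8% of all DU-145 bins. Peaks had been called in 2 vehicle and 3 DOX libraries, so that this region too needed a DOX library to enter. An intronic region of PDCD1LG2, chr9:5529701-5530300, had 0.191, 0.194 and 0.155 CPM per bin with vehicle and 0.568, 0.275 and 0.516 with DOX (1.27, SE 0.32, adjusted p = 0.000906). DOX replicate 2 was the lowest of the DOX libraries there but still above vehicle. The call was lost with loess (0.69), the GC trend removed (0.63, and 0.57 with the replicate block) and the highest bin (0.79), at adjusted p of 0.0636 to 0.132. The second intronic region of PDCD1LG2, chr9:5550101-5550600, showed -0.07 (SE 0.28).

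Downstream of PDCD1LG2, chr9:5620301-5620800 had 0.0371, 0.0882 and 0.0825 CPM per bin with vehicle and 0.747, 0.471 and 0.485 with DOX. This 7.35-fold difference (log2 fold change 2.88, SE 0.38, edgeR adjusted p = 6.30e-08) started from the lowest level of the locus. No vehicle library had a peak there and all 3 DOX libraries had one, so that its low vehicle level and its p depend in part on how regions entered the table. The region chr9:5600201-5600800 showed -0.07 (SE 0.20), with overlapping groups.

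**Figure D2:**
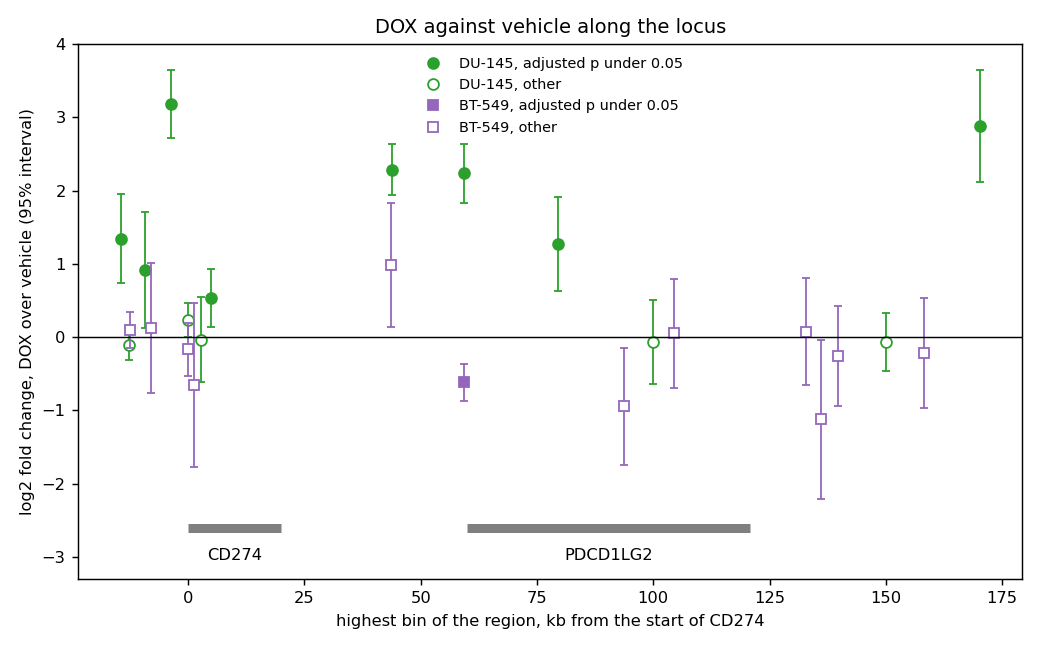
Log2 fold change of DOX over vehicle (95% interval) for each region against its distance from the CD274 start (kb), for both lines. Filled symbols passed an adjusted p of 0.05, and grey bars mark the gene bodies. The filled DU-145 points all lie above 0, up to 3.18, and the single filled BT-549 point, at PDCD1LG2, lies at -0.62.

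The study's cutoffs for a differentially accessible bin in DU-145 were an adjusted p under 1e-05 beside a fold of at least 2. With these cutoffs applied to edgeR's test, which is not the study's own, 22 of 115 bins opened and 0 closed. Over all DU-145 bins, 5% opened and 1.59% closed. The study itself called such bins with DESeq2. With DESeq2 here, 6 of the 115 bins opened and 0 closed, where 6517 of all 709226 bins tested opened and 6430 closed. The 22 bins lay at -3.75 kb (6), between the genes (8), before PDCD1LG2 (6) and at the downstream end (2). Each of these regions needed a DOX library to enter the table. The count of opening bins and the summed coverage below thus depend in part on that selection. None lay in the CD274 promoter region, where the lowest log2 fold change was -0.40. Summed over the whole window, DU-145 coverage was 83.9 ± 3.23 CPM with vehicle and 128 ± 5.14 CPM with DOX (SD, n = 3 each; ratio 1.53). The groups did not overlap, and the exact two-sided permutation p of 0.1 is the smallest that 3 against 3 allows. The 105 regions within 2 Mb outside the locus had a median log2 fold change of 0.43.

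In BT-549 cells the picture differed: coverage at the PD-L2 promoter was lower with DOX, and a higher call, between the genes, came only under alternatives. By edgeR's quasi-likelihood test 1 of 12 regions was lower and 0 were higher, against 18% lower and 12.2% higher over all BT-549 regions. A fold of at least 2 was passed with that p by 0 regions of the locus in either direction, against 4.94% of all regions upwards and 12% downwards. At an unadjusted p under 0.05, 1 region of the locus was higher and 3 were lower, and DESeq2 called 0 higher and 1 lower. The median over the 12 regions was -0.19. Several of the 12, such as that beginning at chr9:5543901, had peaks in 3 vehicle and 0 DOX libraries. The median thus depends in part on how regions entered the table. The depth gap between the BT-549 groups moves with every comparison in this line, and its part in the results was not tested.

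The PDCD1LG2 promoter region in BT-549, chr9:5508501-5511300, reaches across the gene start. It had 3.03, 2.85 and 2.81 CPM per bin with vehicle and 1.62, 1.93 and 2.10 with DOX. All DOX libraries lay below all vehicle libraries, by -0.62 on the log2 scale (SE 0.12, edgeR adjusted p = 0.000327). In its highest bin the unscaled coverage was 107, 89.9 and 71.1 with vehicle and 10.2, 14.6 and 11.3 with DOX. Of its 28 bins, 9 were lower and 0 higher at an adjusted p under 0.05, against 5.91% and 5.03% of all BT-549 bins. Removal of the GC trend from each library ended the call (-0.29, adjusted p = 0.101). Removing only the shape of the trend kept it (-0.37, adjusted p = 0.0271).

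**Figure D3:**
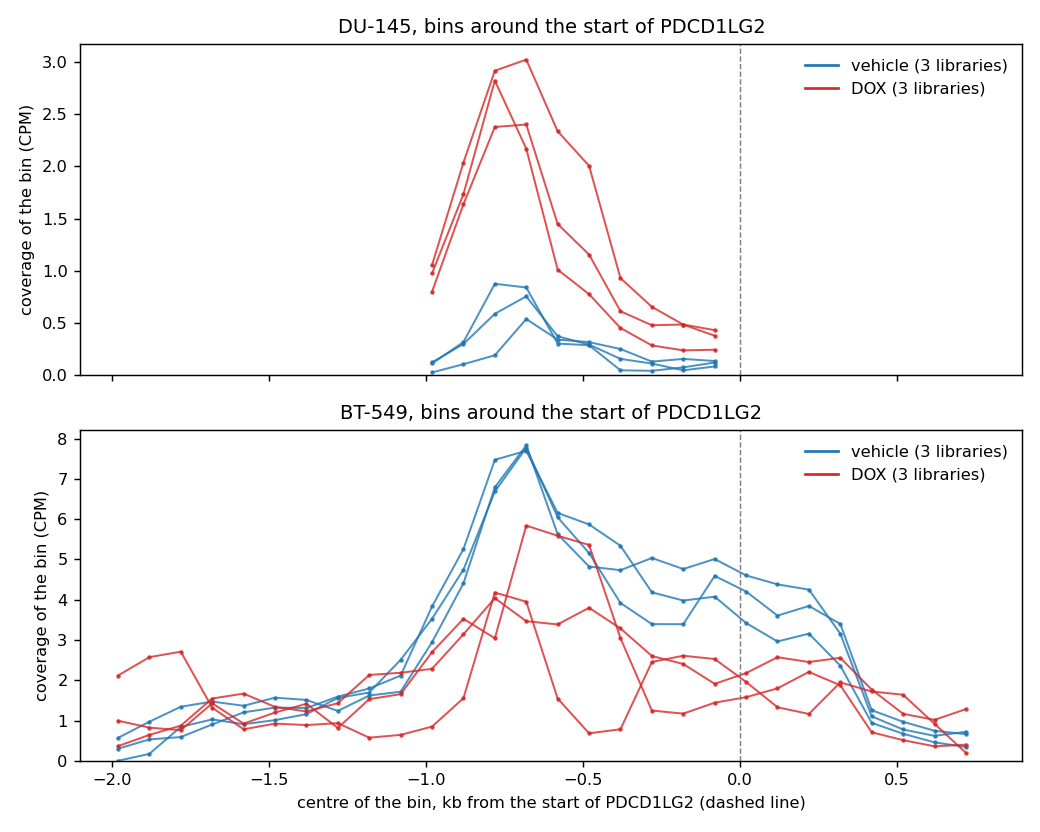
Coverage of each 100-bp bin (CPM) against its distance from the PDCD1LG2 start (dashed line, kb) in DU-145 (top) and BT-549 (bottom), with 1 line per library. In DU-145 the 3 DOX libraries lie above vehicle at the peak before the start. In BT-549 they lie below it there, at 3.46 to 5.84 CPM in the highest bin against 7.70 to 7.83.

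The CD274 promoter in BT-549, chr9:5450001-5451200, had 3.51, 3.57 and 3.85 CPM per bin with vehicle. With DOX it had 3.89, 3.98 and 2.005. DOX replicate 3 stood below the others, so that the groups overlapped (log2 fold change -0.17, 95% interval -0.53 to 0.19, edgeR adjusted p = 0.510). Without that library the value was 0.11. The PLGRKT promoter, which had the highest level of the locus here too, showed 0.09 (SE 0.12, adjusted p = 0.595).

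The region between the genes, chr9:5493601-5494200, had 0.663, 0.628 and 0.271 CPM per bin with vehicle and 1.102, 0.368 and 1.60 with DOX in BT-549. Libraries overlapped and the difference did not pass (log2 fold change 0.98, SE 0.41, edgeR adjusted p = 0.0702), although it did without DOX replicate 2 (1.34, adjusted p = 0.00797). It was also called higher with TMM, RLE, loess, either GC correction and the highest bin, at 1.08 to 1.91 (adjusted p = 0.00337 to 0.0454). In the PDCD1LG2 body, chr9:5543901-5544800 had 0.692, 0.793 and 0.587 CPM per bin with vehicle and 0.528, 0.135 and 0.414 with DOX (-0.95, adjusted p = 0.0661). Downstream, chr9:5586401-5586900 had 0.726, 0.592 and 0.723 with vehicle and 0.511, 0.00 and 0.385 with DOX (-1.12, adjusted p = 0.111). Both were called lower without DOX replicate 1 (adjusted p = 0.0332 and 0.0450). Both had peaks in 3 vehicle and 0 DOX libraries. They thus entered the table through vehicle, and their lower values and p depend in part on that. The other 6 BT-549 regions, which lie before and within CD274 and within and after PDCD1LG2, had log2 fold changes from -0.65 to 0.12, none past the threshold.

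**Figure D4:**
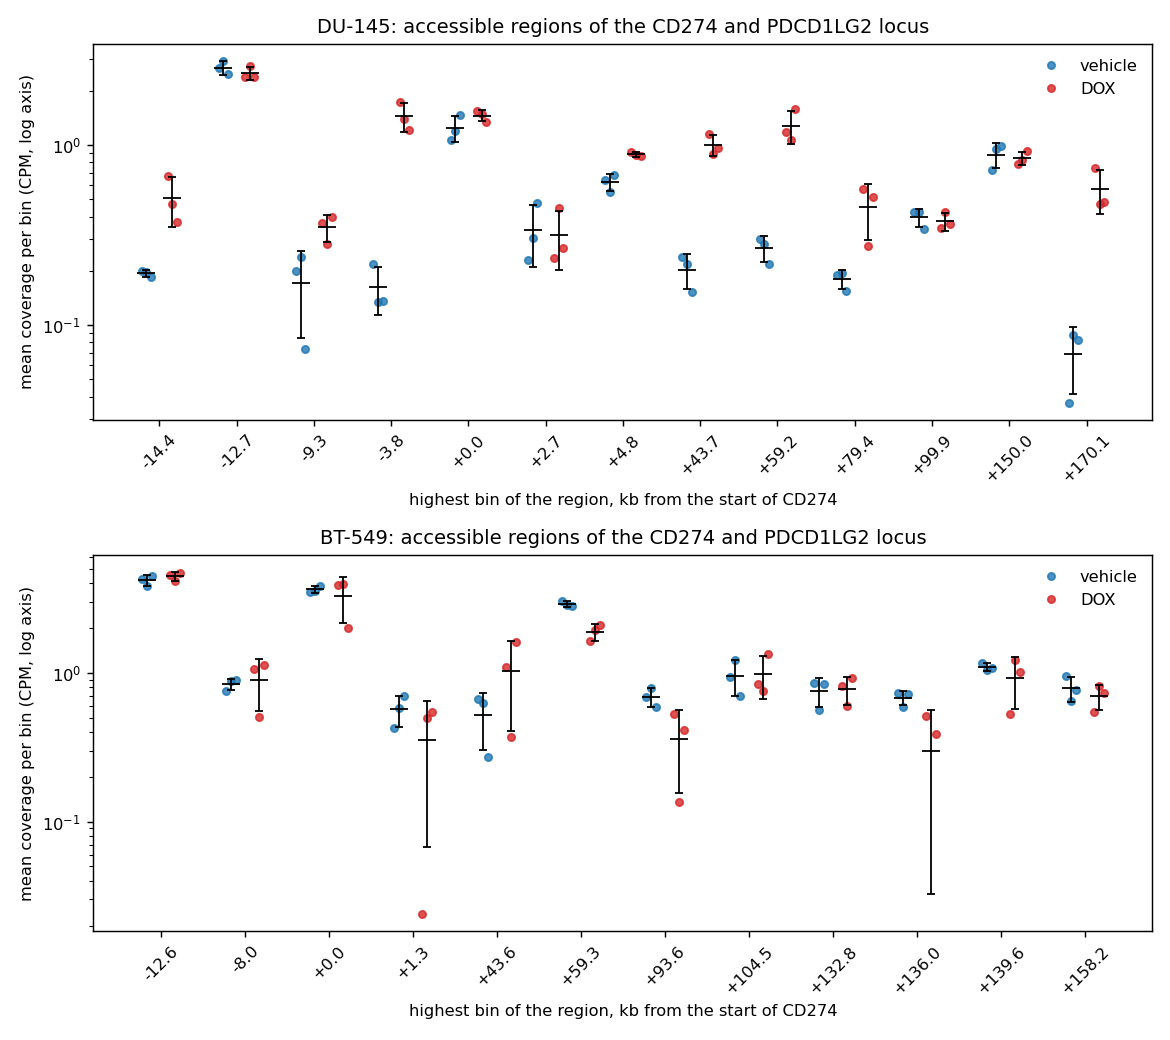
Mean coverage per bin (CPM, log axis) of every region, ordered by the distance of its highest bin from the CD274 start (kb), in DU-145 (top) and BT-549 (bottom). Points are libraries, and black marks are the mean and SD of 3. A BT-549 DOX library at 0 lies off the log axis at +136.0 kb. The DU-145 groups lie apart at -3.75 kb and before PDCD1LG2, and overlap at the CD274 start. The BT-549 groups lie apart at the PDCD1LG2 promoter and overlap at the CD274 start. The share of all regions at which groups lie apart was not computed.

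For BT-549 the study's cutoffs were an adjusted p under 0.01 beside a fold of at least 2. With these cutoffs applied to edgeR's test, 1 of 106 bins opened, against 2.07% of all bins, and 1 closed, against 2.87%. With DESeq2, the study's own test, 0 bins of the locus opened or closed, where 4446 and 3223 of all 472935 bins tested did. The opening bin, chr9:5494101-5494200, lay between the genes. The closing bin, chr9:5510401-5510500, lay immediately before the PDCD1LG2 start. Summed coverage of the window in BT-549 was 226 ± 6.82 CPM with vehicle and 194 ± 3.31 CPM with DOX (SD, n = 3 each; ratio 0.855), without overlap and again at the smallest exact permutation p of 0.1. The DOX libraries of BT-549 had 9, 5 and 6 peaks in the window and the vehicle libraries 22, 20 and 13. Over the whole genome these BT-549 libraries had 38613, 39837 and 30450 peaks with DOX and 93929, 87598 and 65204 with vehicle, so that peak numbers fell throughout. In DU-145 the window had 14, 17 and 15 peaks with DOX and 9, 14 and 6 with vehicle. The whole libraries had 87702, 95487 and 89475 with DOX and 69240, 83605 and 63271 with vehicle. At the PDCD1LG2 promoter the fold enrichment was 40.2, 42.7 and 35.1 in BT-549 vehicle libraries and 8.39, 12.5 and 8.28 with DOX. It was also lower with DOX where coverage was not called different, at 70.0, 70.3 and 66.7 against 24.6, 29.0 and 31.0 for PLGRKT, and at 49.9, 57.8 and 42.1 against 16.8, 21.1 and 11.4 for CD274. The fall in fold enrichment is thus not particular to PDCD1LG2.

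Between the lines in vehicle, the PD-L2 promoter showed the largest difference of the 4 shared regions. Over the bins held by both tables, chr9:5509501-5510500, BT-549 libraries had 6.35, 6.56 and 6.05 CPM per bin and DU-145 libraries 0.403, 0.381 and 0.296. BT-549 was 17.3-fold higher (log2 4.11, SE 0.15, edgeR adjusted p = 3.38e-22). At the CD274 promoter, chr9:5450001-5451100, BT-549 had 4.61, 4.71 and 5.09 and DU-145 2.01, 2.39 and 2.90, a log2 difference of 0.98 (SE 0.12, adjusted p = 1.26e-08). Both sets of libraries were separate. The PLGRKT promoter was higher in BT-549 by 0.67 (SE 0.10, adjusted p = 5.24e-07) and the region between the genes by 0.64 (SE 0.31, adjusted p = 0.0600), which did not pass.

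Thus 3 of 4 shared regions were higher in BT-549, against 48.1% of all shared regions, and 0 were lower, against 27%. A fold of at least 2 was passed by PDCD1LG2 alone (27.6% of all shared regions higher, 10.5% lower). The median shared region was higher by 0.33. The 47 shared regions within 2 Mb outside the locus had a median of 0.93, with 40 higher and 3 lower, and quartiles of 0.62 and 1.47. The differences at CD274 and PLGRKT lay between those quartiles, and that at PDCD1LG2 above them. Copy number and accessibility cannot be told apart in these values.

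The effect of DOX itself differed between the lines at 2 of the 4 shared regions, and was lower in BT-549 at both, against 27.3% of all shared regions lower and 11.3% higher. Both differences were over 2-fold (21.1% of all shared regions lower, 2.33% higher). At the PDCD1LG2 promoter the effect in BT-549 minus that in DU-145 was -3.28 on the log2 scale (SE 0.25, edgeR adjusted p = 2.59e-13). Levels there rose from 0.360 ± 0.06 to 1.87 ± 0.39 CPM per bin in DU-145 and fell from 6.32 ± 0.26 to 3.31 ± 0.71 in BT-549 (SD, n = 3 each). The groups ran, from high to low, BT-549 vehicle, BT-549 DOX, DU-145 DOX and DU-145 vehicle, and no neighbours in this order overlapped. Between the genes, the difference of effects was -1.38 (SE 0.46, adjusted p = 0.0147). It did not pass without BT-549 vehicle replicate 1 (adjusted p = 0.0682) or DOX replicate 2 (adjusted p = 0.0595), nor after the GC correction (-0.55, adjusted p = 0.381).

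At the CD274 promoter the difference of effects was -0.28 (95% interval -0.74 to 0.18, edgeR adjusted p = 0.351), and at PLGRKT 0.03 (-0.30 to 0.35). The CD274 levels were 4.80 ± 0.25 CPM per bin in BT-549 vehicle, 4.14 ± 1.40 in BT-549 DOX, 2.51 ± 0.10 in DU-145 DOX and 2.44 ± 0.45 in DU-145 vehicle. Each neighbouring pair in that order overlapped.

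**Figure D5:**
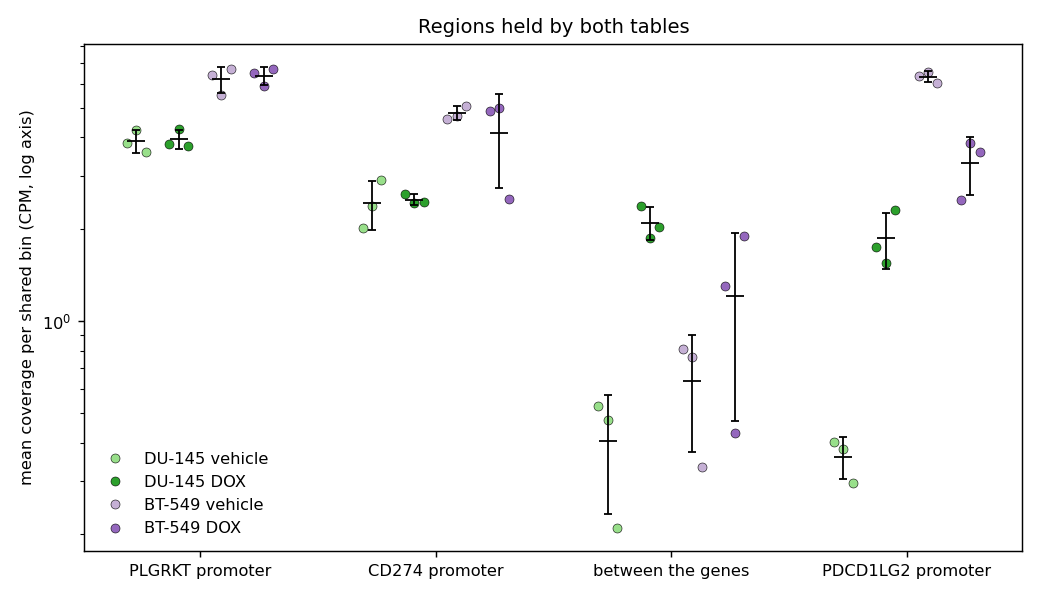
Mean coverage per shared bin (CPM, log axis) at the 4 regions held by both tables. Points are libraries, black marks the mean and SD of 3. At the PDCD1LG2 promoter the 4 groups do not overlap and the lines move towards each other with DOX.

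Genes of the PD-L1 and PD-L2 pathway were read at their promoter regions. In DU-145, among genes of interferon-gamma signalling to CD274, 0 of 13 with a promoter region were higher and 8 were lower. Over all promoter regions of protein-coding genes, 8.8% were higher and 39.3% lower, with a median log2 fold change of -0.17. IRF9, a subunit of the interferon-activated factor ISGF3, fell from 1.96, 1.77 and 1.80 CPM per bin to 0.801, 0.941 and 0.999 (-1.002, SE 0.13, edgeR adjusted p = 9.13e-08). IRF2, a repressor of interferon-driven transcription, fell by 0.66 on the log2 scale (adjusted p = 7.10e-05). Among partners and regulators of protein stability 0 of 8 were higher and 4 lower, with GSK3B, a kinase that marks PD-L1 for degradation, down by 0.61 (adjusted p = 6.72e-09). Other B7 and checkpoint ligands gave 2 higher and 2 lower of 7. The medians of the 3 lists were -0.32, -0.14 and -0.17.

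In BT-549 the same lists gave 2 higher and 1 lower of 13, 3 and 0 of 7, and 1 and 1 of 7. Over all promoter regions 18.6% were higher and 6.9% lower, with a median of 0.10. The medians of the lists were 0.15, 0.39 and 0.04. RELA, the p65 subunit of NF-kB, rose from 2.15, 2.31 and 2.02 CPM per bin to 3.22, 3.40 and 3.42 (0.63, SE 0.13, edgeR adjusted p = 0.000537). SPOP, a substrate adaptor of a ubiquitin ligase for PD-L1, rose by 1.03 (adjusted p = 4.45e-05). STUB1, a ubiquitin ligase, rose by 0.79 (adjusted p = 5.67e-05). NECTIN2, a ligand of the checkpoint receptor PVRIG, rose by 1.05 (adjusted p = 2.20e-06). The promoter of MUC1 itself showed -0.17 (adjusted p = 0.0534) in DU-145 and 0.02 in BT-549. The hairpin acts on RNA, so that these values do not check the silencing.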

How the data were processed

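ATAC-seq libraries of DU-145 and BT-549 cells (3 per group, 12 in all) were analysed from the deposited tables. The study describes the replicates as biologically independent. The authors used BWA-MEM for alignment (GRCh38) and Picard for duplicate removal, called peaks in each library with MACS2 (2.2.7.1, q of 0.05), merged peaks found in at least 3 libraries, and cut them into 100-bp bins. For each bin the authors deposited an estimated count, the mean fragment coverage, without scaling. It is not a whole number. The deposited peak lists give a score, the fold enrichment over local background, and −log10 of p and q.

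Bin values were summed over runs of neighbouring bins and rounded. edgeR (4.0.16, R 4.3.3) fitted a quasi-likelihood model over all regions with a total of at least 10, with library sizes set to column sums and Benjamini-Hochberg adjustment over all regions. Calls were made at an adjusted p under 0.05. The lines and the interaction were fitted on bins held by both tables. DESeq2 (1.42.0), TMM, RLE and loess scaling (limma 3.58.1), GC correction, other filters, 10-kb flanks and leaving out each library were alternatives. The GC correction removed each library's full GC trend, its level included, and so also rescaled the libraries. A further version (GC shape) removed only the shape of the trend. The fits were tested on simulated data. The design assumed counts, and the rounding follows from the coverage not being whole.

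The member genes and the gene lists were chosen with earlier results of these data known. Apart from MUC1, the target of the hairpin, named list genes passed an adjusted p under 0.05 and a fold of at least 1.5. The counts of a further list, which holds MUC1, and some markers are not reported here. The most similar genes were the 3 with the highest correlation of log2(CPM + 0.5) over 12 libraries. Samples were not treated as paired by replicate number. The correlations of deviations were -0.037 to 0.074 for same-numbered samples and -0.094 to 0.061 for the others. With 3 libraries per group these values cannot decide whether samples were prepared in pairs. No 2 libraries of a group held equal values in more than 1.65% of bins. RefSeq promoter entries matched 1 of the 2 members.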

Additional observations from a re-analysis of the deposited data

Results flagged for a closer look

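The effect of DOX differed between the lines at 2 regions of the locus, by the interaction term of line and DOX in edgeR's quasi-likelihood fit. At the PDCD1LG2 promoter, chr9:5509501-5510500, the log2 effect in BT-549 minus that in DU-145 was -3.28 (adjusted p = 2.59e-13). All 3 DU-145 DOX libraries lay above vehicle there and all 3 BT-549 DOX libraries below it. Over 24 alternatives the value ran from -3.41 to -2.22 and stayed past the threshold in each. Between the genes, chr9:5493601-5494200, the difference was -1.38 (adjusted p = 0.0147). It kept its sign over 24 alternatives, from -1.88 to -0.41, but passed the threshold in 16 of them. BT-549 libraries with DOX had 2502510 to 3267024 of summed coverage against at least 9142900 in every other library, and the part of this depth gap in either difference was not tested. In DU-145 both regions had peaks in 2 vehicle libraries and so needed a DOX library to enter.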

How the results depend on the processing

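In DU-145 the rises at the PLGRKT intron, -3.75 kb, between the genes, before PDCD1LG2 and at the downstream end held in all 17 alternatives. Each alternative refitted the same regions, which had needed a DOX library to enter, so that it cannot address that selection. The higher PLGRKT, CD274 and PDCD1LG2 promoters of BT-549 against DU-145 in vehicle held in all 16. The number of DU-145 regions called was 8, and 5 with loess offsets, 6 higher and 1 lower with TMM, RLE or DESeq2, and 7 to 8 without 1 library. In BT-549 it was 1, then 2 with TMM, RLE, loess or the GC shape, 3 with the highest bin, and 1 to 3 without 1 library (3 without DOX replicate 1, 2 without DOX replicate 2). With the GC trend removed in BT-549, the PDCD1LG2 promoter was not called and the region between the genes was. Removing only the shape of the GC trend was chosen after seeing the data. Line calls numbered 3 to 4 without 1 library, and 4 with each table's own sums. Of 2 calls on the difference of effects, 1 was left with loess, GC, GC shape, highest bin, DESeq2 and block with GC, and 1 to 2 without 1 library. The replicate block gave 7 calls in DU-145, 1 in BT-549 and 2 for the difference, and with the GC trend 10, 0 and 1. The same-numbered samples are known to share only a number. DU-145 bins called opening or closing went from 22 to 13 (GC), 14 (GC shape), 6 (DESeq2), 61 (adjusted p of 0.05) and 12 to 20 without 1 library, 12 without vehicle replicate 2. BT-549 bins went from 2 to 0 (GC, DESeq2), 1 (GC shape), 12 (adjusted p of 0.05) and 0 to 1 without 1 library. The log2 ratio of summed coverage was 0.61 in DU-145, 0.48 with TMM, 1.01 with 10-kb flanks and 0.58 to 0.64 without 1 library. In BT-549 it was -0.23, -0.38 with 10-kb flanks and -0.25 to -0.21. The cause of these changes was not tested.

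Signs that turned were as follows. The DU-145 CD274 promoter was at -0.012 (RLE, DESeq2), -0.30 (GC, and block with GC), -0.077 (GC shape) and -0.22 (highest bin), the region at -9.25 kb at -0.10 (loess), and the CD274 intron at chr9:5455001 at -0.21 (GC, and block with GC). The BT-549 CD274 promoter was at 0.087 (GC), 0.0043 (GC shape) and 0.062 (block with GC). Regions of BT-549 beginning at chr9:5442401 and chr9:5554701 were at -0.27 and -0.020 (highest bin), chr9:5589901 at 0.27, 0.19 and 0.24, and chr9:5608601 at 0.099, 0.017 and 0.11 (GC, GC shape, block with GC). Between the genes, the line difference was at -0.36 (loess), -0.17 (GC), -0.035 (GC shape) and -0.11 (highest bin). The difference of effects at PLGRKT was at -0.061 (loess), and at CD274 at 0.012 (RLE), 0.46 (GC), 0.23 (GC shape), 0.021 (DESeq2) and 0.44 (block with GC). Without 1 library, values spanned 0 at DU-145 chr9:5453101 (-0.39 to 0.25), at the BT-549 regions chr9:5442401 (-0.088 to 0.37), CD274 (-0.33 to 0.11), chr9:5554701 (-0.29 to 0.26), chr9:5583001 (-0.10 to 0.22) and chr9:5589901 (-0.48 to 0.0023), and at the PLGRKT difference of effects (-0.048 to 0.092). Depth limits BT-549 with DOX, where 8.84% to 16.9% of bins had a coverage under 1, against at most 0.117% with vehicle.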

Other observations

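The promoter region whose pattern over the 12 libraries was most like that of CD274 belonged to NPR2 (Pearson r of log2 levels 0.963), followed by AFG1L (0.952) and LIN7B (0.952). For PDCD1LG2 it was FAM83E (0.979), then ST3GAL1 (0.975) and RAD54L2 (0.971). CD274 and PDCD1LG2 gave an r of 0.738 with each other. These are descriptions over 10301 promoter regions held by both tables, and the 12 libraries fall into 2 lines, which the correlations share. FAM83E had a mean of 0.401 CPM per bin with vehicle and 0.751 with DOX in DU-145. In BT-549 it had 1.71 and 1.13, the same order of the 4 groups as at the PDCD1LG2 promoter.

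Some peaks of the locus lay outside the bin tables. In BT-549, chr9:5469890-5470331 at the end of CD274 and chr9:5600237-5600918 downstream of PDCD1LG2 had peaks in all 3 vehicle libraries and in no DOX library, sharing 190 and 173 bp. Both also lie within the antisense gene ENSG00000286162. Peak numbers over the whole genome were also lower in these DOX libraries, at 30450 to 39837 against 65204 to 93929 with vehicle. In DU-145, chr9:5589968-5590507 had peaks in 1 vehicle and 2 DOX libraries, sharing 168 bp. DU-145 peaks were also found in 2 DOX libraries and no vehicle library at chr9:5554845-5555186 and chr9:5583097-5583523, positions that BT-549 holds as regions.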
